A study of Arabidopsis thaliana with 12 samples.

Results

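RALF peptides (rapid alkalinization factors) are small secreted plant signals, and their genes were followed here in axillary buds of Arabidopsis thaliana. A gene was included where a probe set of the array was annotated to it alone, with a symbol or synonym of RALF or RALFL followed by a number. These genes were then selected on intensity, which had to lie above the 40th percentile of all non-control probe sets of the same array on at least 3 of 12 arrays. Of 34 RALF loci in the reference gene table, 11 had such a probe set, and 7 of these passed the intensity rule: RALFL18 (AT2G33130), RALFL22 (AT3G05490), RALFL24 (AT3G23805), RALFL31 (AT4G13950), RALFL32 (AT4G14010), RALFL33 (AT4G15800) and RALFL34 (AT5G67070). They are 7 of 7762 named genes tested, among 14295 tested probe sets. The other 23 loci, with RALF1 and RALF23 among them, had no probe set named to them and were not analysed here.

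RALF peptides are made as longer precursors, and some of these are cut by the subtilisin-like protease S1P before the mature peptide acts in the cell wall. The peptides are bound there by receptor kinases of the FERONIA family together with small GPI-anchored co-receptors, and by leucine-rich repeat extensins that sit in the wall. Binding alters the pH of the wall, the growth of cells and immune signalling. In Arabidopsis, RALF34 is a ligand of the receptor kinase THESEUS1 and acts in lateral root initiation, RALF22 has a role in salt tolerance, and RALF33 takes part in immune signalling through FERONIA.

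Transcripts were measured on Affymetrix ATH1 arrays, in which each gene is read by a set of short oligonucleotides. All plants were of the Col-8 accession at growth stage 6.00, and the labels name no mutation or transgene in any group. Buds came from a lower rosette position (bud n-2) or from the uppermost one (bud n), and the plants received light of a low or a high red to far-red ratio (R:FR), which neighbouring vegetation lowers. There were 4 groups, of n-2 buds at low R:FR, n-2 buds at high R:FR, n buds at low R:FR and n buds at high R:FR, with 3 arrays each. Nothing in the labels says whether a group's arrays hold separate sets of plants. The p-values can then speak only of spread among arrays, whose small number limits the precision. In whole buds, fewer cells of a type and less RNA per cell cannot be told apart.

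A gene is said to pass where its adjusted p in limma, a linear model fitted to all tested probe sets, was under 0.05, and a probe set is called dim where it lay below the 40th percentile on every array named. Correlations of an array with the others of its group averaged 0.977 to 0.986. Replicate 2 of n-2 buds at high R:FR and replicate 1 of n buds at high R:FR lay farthest from their groups, with root mean square log2 deviations of 0.208 and 0.221, against 0.141 to 0.200 on the other arrays. Bud identity could not be checked well with markers: of 10 meristem and boundary genes only CLV3 and LAS had a named probe set, both dim on every array, and none of 4 bud and dormancy genes had one. Array medians were 42.4 to 44.1 in n-2 buds and 37.9 to 38.9 in n buds, so log2 differences between positions move with the scaling. The median difference of all tested probe sets was 0.05 at low R:FR and 0.04 at high R:FR on the deposited scale, against -0.15 and -0.13 after centring each array on its median. For the RALF and pathway genes, calls that another scaling moved are given beside the result.

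RALFL34, the gene of the THESEUS1 ligand, was the only RALF gene that passed the test for R:FR in n-2 buds, where it was lower at low R:FR. Its intensity was 996, 1157 and 1026 in n-2 buds at low R:FR, against 1451, 1350.1 and 1317 in n-2 buds at high R:FR. In n buds it was 1810.2, 1719.6 and 1625 at low R:FR, against 1962, 1897 and 1683 at high R:FR. The highest array of n-2 buds at low R:FR lay below the lowest of n-2 buds at high R:FR, which in turn were all below every array of n buds, while both light groups of n buds overlapped. In n-2 buds the log2 difference of low minus high R:FR was -0.37 ± 0.09 (SE, n = 3 each; limma, adjusted p = 0.0165), with a 95% interval of -0.57 to -0.18, or a level 0.771 times as high. Of all tested probe sets, 4.60% had a smaller p in that comparison. The call was lost without replicate 1 of n-2 buds at high R:FR (limma, adjusted p = 0.0549), and also without replicate 1 or 3 of n-2 buds at low R:FR (adjusted p = 0.0782 and 0.0694), with log2 differences of -0.33 to -0.35.

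RALFL34 was also lower in n-2 buds than in n buds at both R:FR settings. The log2 difference of n-2 buds minus n buds was -0.70 ± 0.09 (SE, n = 3 each; limma, adjusted p = 8.28e-06) at low R:FR, or 0.616 times the level of n buds. At high R:FR it was -0.43 ± 0.09 (limma, adjusted p = 0.0017), or 0.744 times. Both position calls held in each of 22 other settings. In n buds the difference of low minus high R:FR was -0.10, with an interval of -0.30 to 0.09 that spans 0 (limma, adjusted p = 0.971). The R:FR difference in n-2 buds minus that in n buds was -0.27, with an interval of -0.55 to 0.00 (limma, adjusted p = 0.338), so the responses of both buds were not shown to differ.

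**Figure D1:**
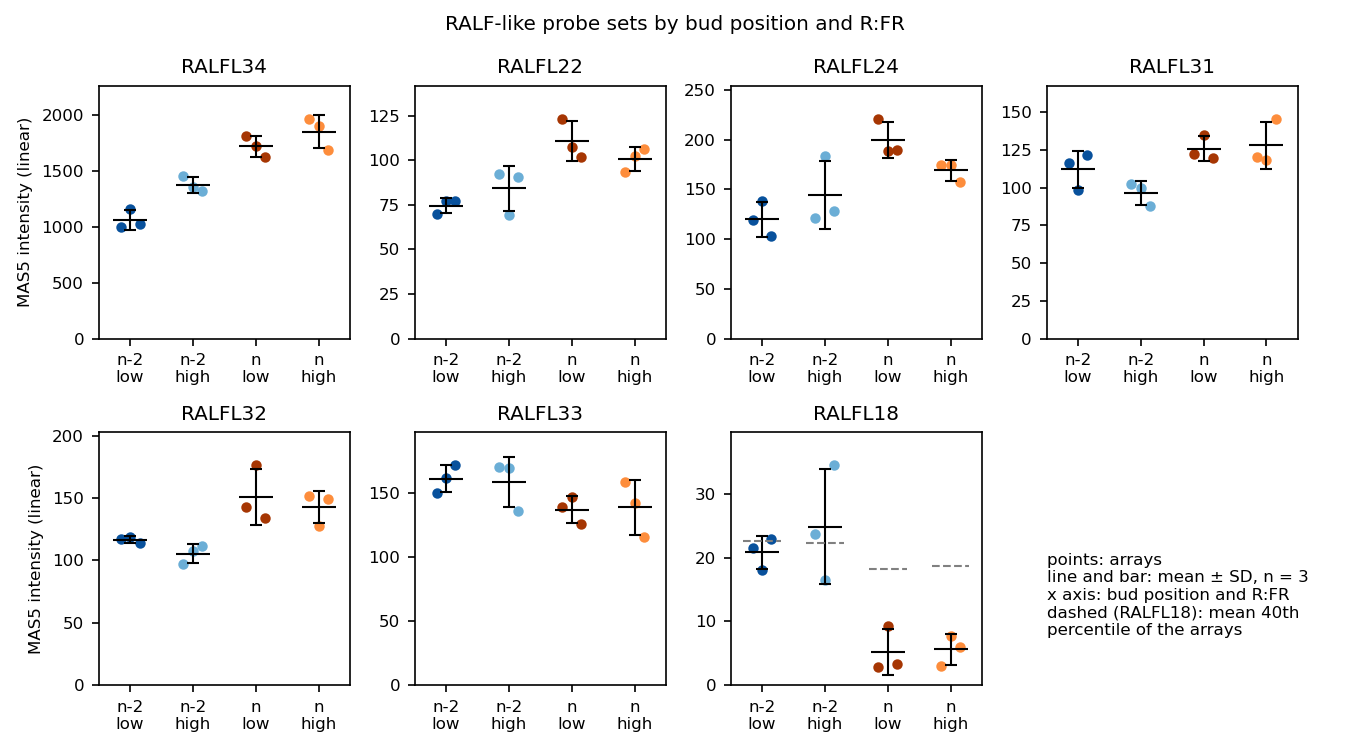
Deposited MAS5 intensity (linear y axis from 0) of the 7 RALF genes in each group (x axis: bud position and R:FR). Points are arrays, the line and bar are the mean ± SD (n = 3), and the dashed lines for RALFL18 are the mean 40th percentile of the group's arrays; RALFL34 steps down in n-2 buds, most at low R:FR, and RALFL18 lies below the dashed line on all 6 arrays of n buds.

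RALFL22, whose peptide has a role in salt tolerance, was lower in n-2 buds than in n buds at low R:FR. Its intensity was 69.6, 76.9 and 76.9 in n-2 buds, against 123, 107 and 102 in n buds, and the groups did not overlap. The log2 difference was -0.57 ± 0.12 (SE, n = 3 each; limma, adjusted p = 0.000825), or 0.673 times the level of n buds. The intensities at high R:FR were 92.5, 69.5 and 90.5 in n-2 buds, against 93.4, 102 and 106 in n buds. These groups did not overlap either, but lay close together, and the log2 difference of -0.27 did not pass (limma, adjusted p = 0.0978). It passed after quantile normalization (-0.35, adjusted p = 0.0283) and after median centring (-0.44, adjusted p = 0.00657), both in limma.

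RALFL33, the gene of an immune-signalling peptide, passed no test. Its intensity was 150.2, 162 and 171 in n-2 buds at low R:FR, 170.0, 169.7 and 136 in n-2 buds at high R:FR, 139, 147 and 125 in n buds at low R:FR, and 158, 142 and 116 in n buds at high R:FR. The position difference was positive on the deposited scale, at 0.24 at low R:FR, where the groups did not overlap, and 0.20 at high R:FR, where they did (limma, adjusted p = 0.117 and 0.229). After median centring these differences were 0.04 and 0.03, still positive.

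RALFL24 was lower in n-2 buds than in n buds at low R:FR, with intensities of 119, 138 and 103 in n-2 buds, against 221, 188 and 190.0 in n buds. The log2 difference was -0.74 ± 0.14 (SE, n = 3 each; limma, adjusted p = 0.000313), or 0.598 times the level of n buds, with no overlap. The high R:FR intensities were 121, 183 and 128 in n-2 buds, against 175, 175 and 157 in n buds. Replicate 2 of n-2 buds was the highest of these 6 arrays, so the groups overlapped and the log2 difference of -0.25 did not pass (limma, adjusted p = 0.176). Without that array, one of the pair farthest from their groups, the difference was -0.44 and passed (limma, adjusted p = 0.0111), and it also passed without both of that pair (-0.41, adjusted p = 0.0296) and after median centring (-0.42, adjusted p = 0.0266).

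The light differences of RALFL24 had opposite signs by position, -0.25 in n-2 buds and 0.24 in n buds, and neither passed (limma, adjusted p = 0.293 and 0.910). In n buds all 3 arrays at low R:FR were above those at high R:FR. The difference of these responses was -0.49, with an interval of -0.91 to -0.07 (limma, unadjusted p = 0.0254), which did not pass after adjustment over all probe sets (adjusted p = 0.254).

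RALFL32 was lower in n-2 buds than in n buds at both R:FR settings. Its intensity was 117, 119 and 114 in n-2 buds, against 143, 176 and 134 in n buds, at low R:FR. At high R:FR it was 97.3, 107 and 112 in n-2 buds, against 151, 128 and 149 in n buds. Neither comparison had overlapping arrays. The log2 differences were -0.36 ± 0.11 at low R:FR and -0.44 ± 0.11 at high R:FR (SE, n = 3 each; limma, adjusted p = 0.012 and 0.00592). The call at low R:FR was lost without replicate 2 of n buds at low R:FR, its brightest array (-0.24; limma, adjusted p = 0.0822). In n-2 buds the 3 arrays at low R:FR were all above those at high R:FR, yet the log2 difference of 0.15 did not pass (limma, adjusted p = 0.443).

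RALFL31 was lower in n-2 buds than in n buds at high R:FR, with intensities of 102, 99.6 and 87.7 in n-2 buds, against 120.2, 118 and 146 in n buds. The log2 difference was -0.40 ± 0.11 (SE, n = 3 each; limma, adjusted p = 0.0112), or 0.757 times the level of n buds, with no overlap. This call was lost without replicate 3 of n-2 buds at high R:FR (-0.33; limma, adjusted p = 0.054) and without replicate 3 of n buds at high R:FR (-0.31, adjusted p = 0.0682). At low R:FR the intensities were 116, 98.5 and 122 in n-2 buds, against 123, 135 and 119.8 in n buds. These groups overlapped, and the log2 difference of -0.17 did not pass (limma, adjusted p = 0.224), but did after median centring (-0.36, adjusted p = 0.013).

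RALFL18 was dim on all 6 arrays of n buds and near the intensity limit in n-2 buds. Its intensity was 21.6, 18.0 and 23.0 in n-2 buds, against 2.84, 9.28 and 3.36 in n buds, at low R:FR. At high R:FR it was 23.8, 16.4 and 34.5 in n-2 buds, against 3.02, 7.73 and 6.03 in n buds. Only 3 arrays exceeded their own 40th percentile, 1 of n-2 buds at low R:FR and 2 of n-2 buds at high R:FR, so the gene entered through n-2 buds and its position difference is a description of what the rule selected. Set against the 40th percentile of the arrays of n buds, RALFL18 was at least 1.14-fold higher in n-2 buds than in n buds at low R:FR and at least 1.28-fold higher at high R:FR. The 40th percentile itself was 1.24 times as high in n-2 buds as in n buds at low R:FR and 1.20 times at high R:FR. In the fit, both differences passed (limma, adjusted p = 0.000964 and 0.00196), and the call at low R:FR no longer passed once dim values were set at that percentile (0.33, adjusted p = 0.0543).

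The 4 family probe sets outside the rule, RALFL25, RALFL26, RALFL27 and RALFL28, exceeded the 40th percentile on 0 arrays. Their intensities ranged over all arrays from 0.154 to 6.02, 0.382 to 5.88, 0.335 to 7.15 and 0.298 to 8.81. RALFL18, the member nearest the limit, exceeded it on 3 arrays, and the other 6 members on all 12. Within groups, the coefficient of variation of the intensities of those 6 ranged from 2.07% for RALFL32 in n-2 buds at low R:FR to 23.7% for RALFL24 in n-2 buds at high R:FR, with a median of 8.10%.

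For low against high R:FR in n-2 buds, 1 of the 7 genes passed, RALFL34, against 9.83% of all probe sets in either direction and 5.49% lower. The groups of arrays did not overlap for RALFL34 and RALFL32, 2 of 7 genes, against 28.8% of all probe sets. The median log2 difference was -0.17 over the 7 genes and -0.07 over the 6 other than RALFL18, against 0.01 over all tested probe sets. The other 6 genes did not pass (limma, adjusted p of 0.266 to 0.908), with log2 differences between -0.25 for RALFL24 and 0.21 for RALFL31.

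For low against high R:FR in n buds, 0 of the 7 genes passed in limma, against 0.0839% of all probe sets, and 0 had an unadjusted p under 0.05, against 6.03%. Arrays did not overlap for 1 of 7 genes, RALFL24, against 11.6% of all probe sets. For the 6 genes other than RALFL18, the 95% intervals together spanned -0.30 to 0.54 on the log2 scale. The median difference was -0.01 over the 7 genes and 0.03 without RALFL18, against 0.00 over all probe sets.

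**Figure D2:**
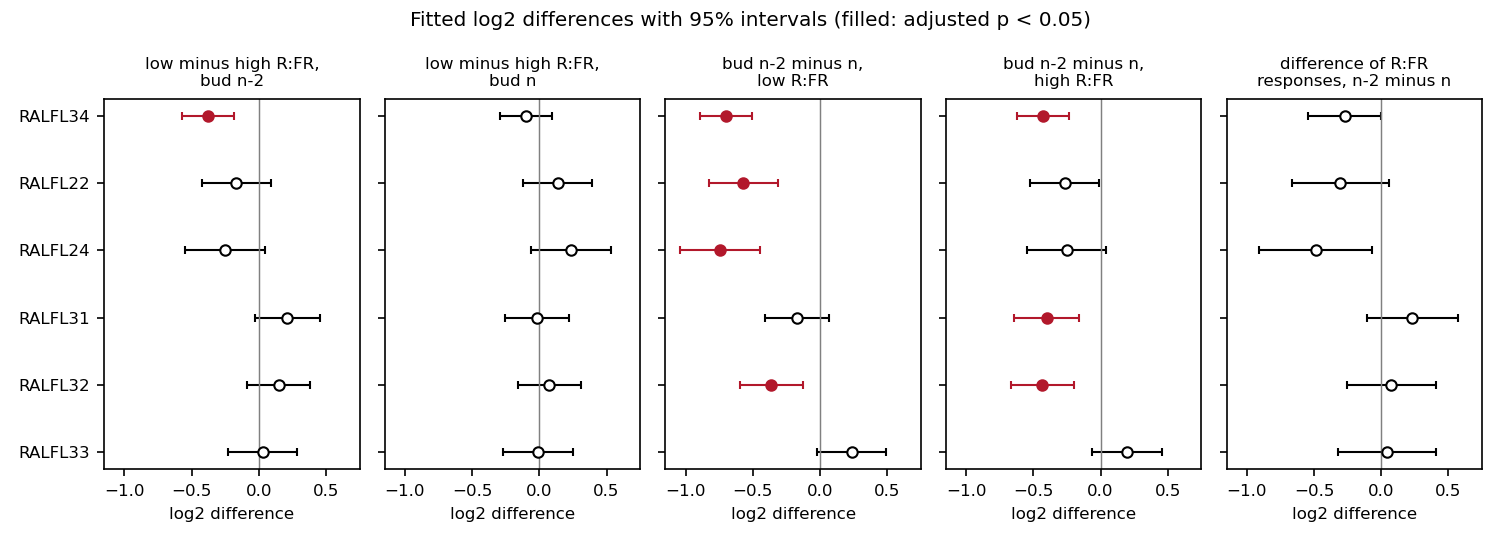
Fitted log2 differences (x axis) with 95% intervals for the 6 RALF genes bright in all groups (y axis), in 5 comparisons; filled points passed at an adjusted p under 0.05. Passing points lie left of 0 in all panels that hold any, and those of RALFL34 lie there in the 3 panels of R:FR in n-2 buds and of both position comparisons.

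For n-2 buds against n buds at low R:FR, 4 of the 7 genes were lower (RALFL34, RALFL24, RALFL22 and RALFL32), against 23.3% of all probe sets, and 1 was higher (RALFL18), against 28.4%. At high R:FR, 3 were lower (RALFL34, RALFL32 and RALFL31), against 14.3% of all probe sets, and RALFL18 was higher, against 20.2%. Arrays did not overlap for 6 of 7 genes at low R:FR and 5 of 7 at high R:FR, against 61.1% and 45% of all probe sets. RALFL18 is in both of these counts, and RALFL33, which was higher in n-2 buds, is in the count at low R:FR. The median log2 difference of the 7 genes was -0.36 at low R:FR and -0.27 at high R:FR, against 0.05 and 0.04 over all tested probe sets. RALFL34 and RALFL32 were lower at both R:FR settings, as were 12.3% of all probe sets, and RALFL18 was higher at both, as were 17.2%. Since RALFL18 was kept only through n-2 buds, nothing is read from its count, and without it the medians over the other 6 genes were -0.47 at low R:FR and -0.33 at high R:FR.

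The comparisons of R:FR and of position share arrays, so their values for a gene are not independent. In the test of whether the R:FR response differed between buds, 0 of the 7 genes passed, against 1.03% of all probe sets, and 1 of 7, RALFL24, had an unadjusted p under 0.05 (limma), against 14.9% of all probe sets. The differences of RALFL22, RALFL31, RALFL32 and RALFL33 were -0.30, 0.23, 0.07 and 0.04 on the log2 scale.

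**Figure D3:**
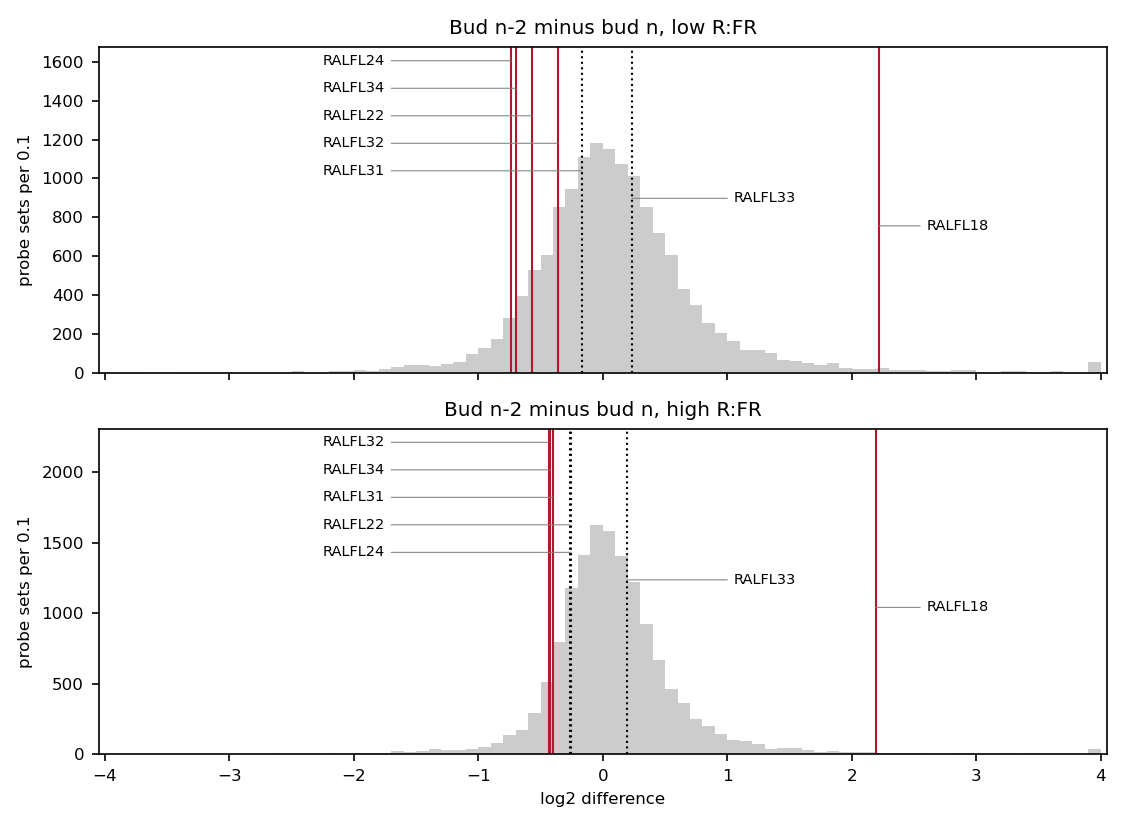
Histograms of the log2 difference of n-2 buds minus n buds (x axis, bins of 0.1, values beyond the axis counted in its end bins) over all 14295 tested probe sets, at low R:FR (top) and high R:FR (bottom). Vertical lines mark the RALF genes, solid where they passed and dotted where they did not; RALFL18's line rests on dim values in n buds and is no bound, and the passing lines of the other genes lie left of 0 in both panels.

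The other genes of the pathway were taken from 4 lists with 49 loci: 15 receptor kinases of the FERONIA family, 4 genes of the co-receptor family, 11 leucine-rich repeat extensins and 19 processing and signalling partners. Of these, 10, 0, 8 and 3 had a named probe set, and 3, 0, 3 and 1 passed the intensity rule. Of the 7 tested, 0 passed for R:FR in n-2 buds and 0 in n buds (limma), while 3 and 1 of 7 had an unadjusted p under 0.05, against 24.3% and 6.03% of all probe sets. For n-2 buds against n buds at low R:FR, 3 were higher and 1 lower, against 28.4% and 23.3% of all probe sets. At high R:FR, 2 were higher and 1 lower, against 20.2% and 14.3%. The test of the difference between responses was passed by 0 of 7 (limma), and 2 of 7 had an unadjusted p under 0.05, against 14.9% of all probe sets. AT2G15880, kept only through n-2 buds, is 1 of those counted as higher at each R:FR setting, and nothing is read from its count. The lists are too thinly covered to describe the pathway as a whole.

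Among the receptor kinases, FER, which binds several RALF peptides, had intensities of 353 to 381 in n-2 buds and 334 to 357 in n buds at low R:FR, and of 359 to 399.9 in n-2 buds and 332 to 367 in n buds at high R:FR. Its log2 position differences of 0.10 and 0.15 did not pass (limma, adjusted p = 0.343 and 0.170), and their sign turned after median centring (-0.10 and -0.02). After quantile normalization they stayed positive, at 0.14 and 0.20, and did not pass (limma, adjusted p = 0.154 and 0.0722). THE1, the receptor of the RALF34 peptide, was lower in n-2 buds than in n buds at low R:FR, at 64.1 to 66.0 against 76.6 to 85.5 (-0.32 ± 0.11; SE, n = 3 each; limma, adjusted p = 0.0223). That call was lost without replicate 2 or 3 of n buds at low R:FR (limma, adjusted p = 0.0747 and 0.0574) and without replicate 1 of n-2 buds at low R:FR (adjusted p = 0.061). The values of THE1 at high R:FR overlapped, at 70.5 to 91.4 in n-2 buds against 78.0 to 82.0 in n buds (-0.02; limma, adjusted p = 0.899). For low against high R:FR in n-2 buds, THE1 did not pass (-0.28; limma, adjusted p = 0.127), although its arrays did not overlap. AT2G23200, also on the receptor kinase list, was higher in n-2 buds at low R:FR (0.82 ± 0.19; limma, adjusted p = 0.00197) and at high R:FR (0.73 ± 0.19, adjusted p = 0.00704), the second of which no longer passed after quantile normalization (0.52, adjusted p = 0.0516). For low against high R:FR in n-2 buds its log2 difference of 0.61 did not pass (limma, adjusted p = 0.0533), with no overlap of arrays. Among other settings, it passed after quantile normalization (0.63, adjusted p = 0.0496), with 32 added before log2 (0.34, adjusted p = 0.0248) and with dim values raised (0.61, adjusted p = 0.0196). It also passed without replicate 1 of n buds at high R:FR (0.61, limma, adjusted p = 0.0349). It did not pass after median centring, without the intensity rule or with replicate number as a block (limma, adjusted p = 0.0563, 0.107 and 0.0704). Nor did it pass with only the arrays of the compared groups (limma, adjusted p = 0.0614). In n buds the R:FR difference of AT2G23200 was 0.53, with no overlap (limma, unadjusted p = 0.0132, adjusted p = 0.712). The difference of its responses was 0.08 (limma, adjusted p = 0.922).

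S1P, the protease gene, was higher in n-2 buds than in n buds at low R:FR, at 78.7 to 98.2 against 46.6 to 66.4 (0.63 ± 0.16; SE, n = 3 each; limma, adjusted p = 0.00298). At high R:FR it was 66.6 to 89.6 in n-2 buds against 63.3 to 81.1 in n buds, and did not pass (0.04; limma, adjusted p = 0.868), with a negative sign after quantile normalization (-0.07) and median centring (-0.13). Of the extensin list, AT2G15880, listed there as PEX3, was dim on every array of n buds. It was at least 2.86-fold higher in n-2 buds at low R:FR and at least 1.40-fold higher at high R:FR (limma, adjusted p = 4.05e-06 and 0.00653). It exceeded the 40th percentile on 3 arrays of n-2 buds at low R:FR and 2 at high R:FR and on none of n buds, so, like RALFL18, it was kept only through n-2 buds and its position difference describes what the filter selected. In n-2 buds its difference of low minus high R:FR was 1.00 and did not pass (limma, adjusted p = 0.0782). Among other settings, it passed with 32 added before log2 (0.54, adjusted p = 0.0167) and with dim values raised (0.91, adjusted p = 0.00935). It also passed with only the arrays of the compared groups (limma, adjusted p = 0.0438) and without replicate 1 of n buds at high R:FR (adjusted p = 0.0358). It did not pass after quantile normalization, after median centring or without the intensity rule (limma, adjusted p = 0.0602, 0.084 and 0.145). Nor did it pass without a trend of spread with intensity or with replicate number as a block (limma, adjusted p = 0.0975 and 0.0763). AT4G18670 was dim on every array of n-2 buds at high R:FR and at least 1.41-fold lower there than in n buds (limma, adjusted p = 0.00862), a call lost without replicate 1 of n buds at high R:FR, one of the pair farthest from their groups (-0.62, adjusted p = 0.0531). At low R:FR the position difference of AT4G18670 was -0.37 and did not pass (limma, adjusted p = 0.158), but did after quantile normalization (-0.63, adjusted p = 0.0238) and median centring (-0.56, adjusted p = 0.035). AT3G24480 passed in neither position comparison (limma, adjusted p = 0.163 at low R:FR and 0.088 at high R:FR), but in both after median centring (-0.51 and -0.59, adjusted p = 0.0285 and 0.0183) and after quantile normalization (-0.56 and -0.63, adjusted p = 0.0192 and 0.0162).

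**Figure D4:**
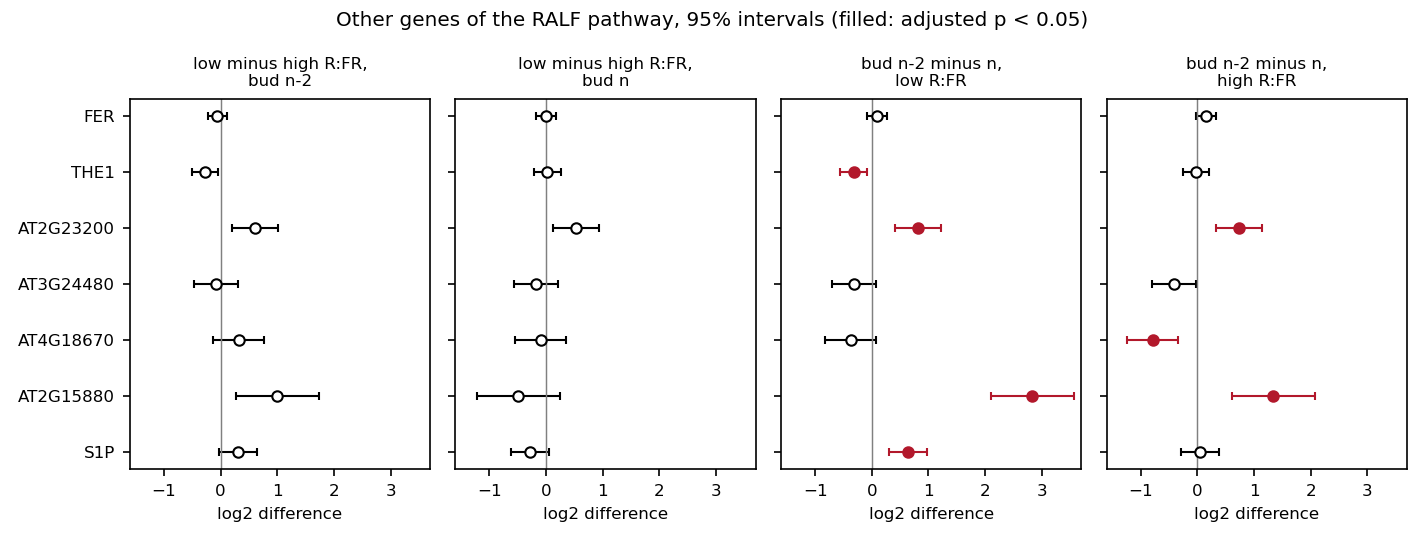
Fitted log2 differences (x axis) with 95% intervals for the 7 tested pathway genes outside the RALF family (y axis), in the comparisons of R:FR and of position; filled points passed at an adjusted p under 0.05. No point is filled in the R:FR panels; the position points of AT2G15880, and that of AT4G18670 at high R:FR, rest on dim values in a group and are no bounds.

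Some markers of other tissues and some control signals also moved with position, and their part in the RALF differences was not tested. Of 6 tapetum and anther markers, 2 had a probe set (AMS and AT5G07230), and their summed intensity was 549.9 to 1137 in n-2 buds against 153 to 241 in n buds at low R:FR, and 504 to 778 in n-2 buds against 318 to 398 in n buds at high R:FR. AMS, an anther transcription factor, passed for position at low R:FR (1.14, limma, adjusted p = 7.28e-05) and was -0.03 at high R:FR (adjusted p = 0.929). It passed for the difference of R:FR responses between n-2 buds and n buds (1.17, limma, adjusted p = 0.0426). That last call was lost, with all others of that comparison, in a fit without a trend of spread with intensity. AT5G07230 passed for position at both R:FR settings (2.43 at low and 1.18 at high; limma, adjusted p = 5.69e-07 and 0.00155). Of 6 genes listed for pollen only SHT had a probe set, so pollen cannot be told from the tapetum here. The intensity of SHT was 12.9 to 35.1 in n-2 buds against 0.174 to 3.80 in n buds at low R:FR. At high R:FR it was 14.7 to 21.5 in n-2 buds against 0.401 to 2.77 in n buds. SHT exceeded the 40th percentile on only 1 array, of n-2 buds at low R:FR, and was not tested. Of 6 root markers 2 had a probe set, and both were dim on every array, and the leaf marker RCA, 1 of 5 with a probe set, passed no test.

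The 25S ribosomal RNA control had an intensity of 2516 ± 344 in n-2 buds against 1646 ± 163 in n buds at low R:FR, and 2205 ± 115 in n-2 buds against 1704 ± 26.5 in n buds at high R:FR (SD, n = 3 each). The log2 ratio of 3′ to 5′ signal of the actin control was 4.17 ± 0.15 in n-2 buds against 4.63 ± 0.15 in n buds at low R:FR, and 4.16 ± 0.12 in n-2 buds against 4.31 ± 0.04 in n buds at high R:FR (SD, n = 3 each). For GAPDH this ratio was 1.00 ± 0.10 in n-2 buds against 0.95 ± 0.08 in n buds at low R:FR, and 0.81 ± 0.32 in n-2 buds against 0.87 ± 0.15 in n buds at high R:FR. For ubiquitin it was 1.44 ± 0.12 in n-2 buds against 1.57 ± 0.21 in n buds at low R:FR, and 1.40 ± 0.12 in n-2 buds against 1.39 ± 0.18 in n buds at high R:FR. The GAPDH and ubiquitin ratios of n-2 buds and n buds differed by less than the larger of the SDs compared.

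For the 3 RALF genes with the smallest p in any comparison, the 3 named genes most like each were ranked by Pearson's r of log2 intensity over the 12 arrays, among 7812 probe sets. RALFL34 was closest to AT1G06000 (r = 0.981), SAPX, which encodes a chloroplast ascorbate peroxidase (0.973), and AT3G49080 (0.972). RALFL24 was closest to AT2G31730 (0.976), AT2G37470 (0.967) and AT1G79390 (0.964). RALFL22 was closest to AT4G39880 (0.954), PDF1A, a peptide deformylase gene (0.942), and AT4G38890 (0.938). The arrays share 2 bud positions and 2 light conditions, so each r includes the differences between groups. For deviations from the group means alone, r was 0.685 to 0.718 for the 3 genes beside RALFL34, 0.914 to 0.970 for those beside RALFL24 and 0.750 to 0.828 for those beside RALFL22. In n-2 buds at high R:FR, replicate 2 was the highest array for RALFL24 and its 3 genes, and the lowest for RALFL22 and its 3. That array is one of the pair farthest from their groups, and r without it was not computed. The genes were picked by r over the same arrays, deviations included, so these values partly follow from that choice. They are descriptions of 12 arrays and carry no test.

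**Figure D5:**
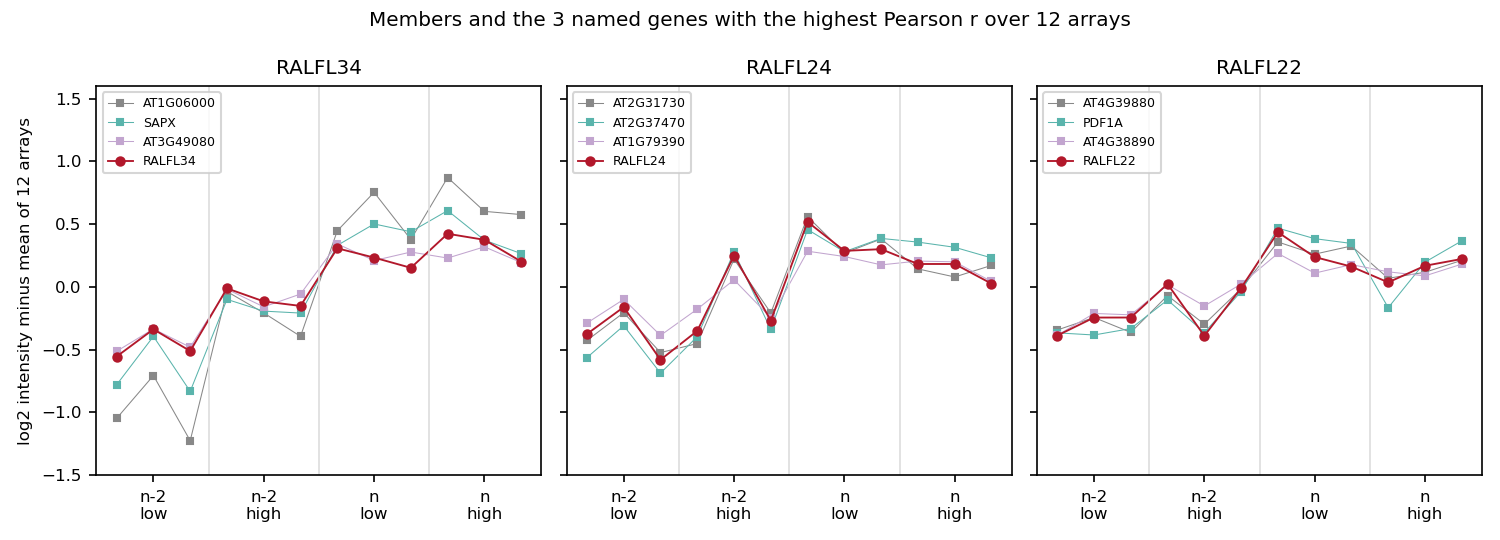
Log2 intensity minus the mean of the 12 arrays (y axis) for RALFL34, RALFL24 and RALFL22 (circles) and the 3 named genes closest to each (squares), by array within the 4 groups (x axis). Lines only join the points of a gene; within n-2 buds at high R:FR, replicate 2 (the middle point) is high in the RALFL24 panel and low in the RALFL22 panel for the gene and its neighbours alike.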

How the data were processed

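The authors deposited 1 linear intensity for each probe set and array, made with MAS5 and GCOS per the submitters' processing notes; no version or build is given in the sources used here. Trimmed means of the deposited values were alike on every array. Of 22810 probe sets, 64 controls were left out. Intensities were log2-transformed with no offset, and 14295 probe sets were kept, each brighter than the 40th percentile of its array on 3 or more arrays.

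Group means were fitted over the 12 arrays in limma 3.58.1 (R 4.3.3; eBayes with a trend, 8 residual and 9.18 prior degrees of freedom), with Benjamini-Hochberg adjustment over all 14295 probe sets and a threshold of 0.05, in 5 comparisons. "Dim" means below the 40th percentile on every array of a group; a fold against a dim group is a bound from dim values raised to that percentile, and none is given where both groups are dim. The code was tested on simulated data. Groups come from the labels, and plants grew one per tube in days of 18 h light.

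Names come from the platform annotation and the RefSeq table of TAIR10.1: 1 gene is listed for 13513 probe sets, several for 503 and none for 8794. Lists were matched by locus. All members were named, and 3 like genes for each of 3 members. The plan was to name up to 6 pathway genes per comparison by smallest p, but all that were tested are named for position. The members and lists were chosen with earlier results of these data known. Same-numbered arrays of different groups deviated together with r of -0.143 to 0.075, so the numbers were not taken to pair them. Alternatives were other scalings, filters, offsets and fits, and each array left out; they were applied to the pathway genes after seeing the data.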

Additional observations from a re-analysis of the deposited data

How the results depend on the processing

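The number of RALF genes that passed was 0 for R:FR in n buds in all 22 alternatives and 0 for the difference of responses in all 21. For R:FR in n-2 buds it was 1, and 0 to 1 with an array left out: it fell to 0 without replicate 1 of n-2 buds at high R:FR, or replicate 1 or 3 of n-2 buds at low R:FR. For position it was 5 at low R:FR, with 4 to 6 over the alternatives and 4 to 5 with an array left out. At high R:FR it was 4, with 3 to 6 and 3 to 5. After median centring it was 6 in both. Calls over all 14295 probe sets then rose too, from 7388 to 7801 at low R:FR and from 4934 to 5790 at high R:FR. RALFL18 is part of the position counts of this section wherever it passed, and nothing is read from its part. Without it, 4 and 3 genes passed as deposited, all lower, against 23.3% and 14.3% of all probe sets. With 60 in place of 40 as the filter percentile RALFL18 was not tested. No RALF call changed sign. With replicate number as a block the counts were 1 and 0 for R:FR in n-2 buds and n buds, 5 and 4 for position at low and high R:FR, and 0 for the difference of responses, the same numbers as without it. Scaling moved the calls over all probe sets: 54.9% of position calls at low R:FR were higher as deposited, 46.1% after quantile normalization and 33.3% after median centring, and 58.6%, 49.3% and 30.1% at high R:FR. The 147 calls for the difference of responses fell to 0 without the trend. Leaving out both arrays farthest from their groups, chosen after seeing the data, gave 5 position calls at high R:FR, RALFL24 being the addition. Dim signal limits RALFL18 and the 4 genes outside the rule. Without the filter RALFL27 passed for position at low R:FR (limma, adjusted p = 0.0439), but it was dim on every array, so no difference is read from it.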
